A study of Homo sapiens with 3 samples.

Results

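The clustered protocadherins form 3 gene clusters in a row on the long arm of human chromosome 5, and their promoters were read here in 2 chromatin immunoprecipitation sequencing (ChIP-seq) libraries. Members were taken by name and place: every promoter window on chromosome 5 whose symbol is that of an alpha, beta or gamma protocadherin. This gave 59 windows of 60123 in the table, 16 in the alpha, 19 in the beta and 24 in the gamma cluster. All lie on the plus strand of hg38, from chr5:140784136 to chr5:141489621, a span of 705.5 kb, and their symbols, chromosome and order match the label. Each window covers 2000 bp upstream and 500 bp downstream of the transcription start site in the table. Its value is the deposited mean signal over 150 bp bins, in which 1 unit is an average of 1 per bin.

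The cells were SW1990, an established line from a human pancreatic ductal adenocarcinoma, in a population labelled SP. No treatment is named in the labels. In the PAF1 library, titled PD2 (a synonym of PAF1), the antibody was directed against PAF1, a subunit of the PAF1 elongation complex that travels with RNA polymerase II. The PHF5A library was made with an antibody to PHF5A, which is part of the SF3b particle of the spliceosome. Both were fixed with formaldehyde (0.4%) and EGS (1.5 mM), a longer crosslinker. The input chromatin library was not analysed here, so no signal below was compared with input. Levels are therefore read as coverage, and how much of them is binding of PAF1 or PHF5A was not tested. Each antibody has 1 library, so no comparison has a replicate check or a test between groups. Values after ± are counting standard errors of that single library, and they include no spread between cultures. The line is 1 tumour cell line, and since a promoter table gives no RNA levels, its cell type could not be checked by marker expression.

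Clustered protocadherins are cell surface cadherins best known from neurons, where each cell uses a few of the many promoters and the resulting set of proteins lets a neuron recognise its own processes. In the alpha and gamma clusters each variable exon has its own promoter and is spliced to constant exons shared by the cluster, while each beta gene is a single exon. The C-type members at the end of the alpha and gamma clusters are expressed more uniformly across neurons. Most of the promoters carry a conserved element around the letters CGCT, which overlaps binding sites of the architectural protein CTCF. In several cancers these clusters are known as targets of DNA methylation over long stretches.

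Promoter sequences from RefSeq (GRCh38.p14, 250 bases before to 50 after a start) matched 47 of the 59 members. The letters CGCT, searched on both strands, were found in 46 of the 47, but also in 70.0% of all 35116 promoters. The most shared 8-base stretch that holds these letters was then looked up in each cluster. It was ATGTCGCT in 9 of 13 alpha promoters, GTGGCGCT in 13 of 14 beta promoters and GCCGCTGT in 11 of 20 gamma promoters. On both strands the alpha stretch occurred in 0.234% of all promoters, the beta stretch in 1.15% and the gamma stretch in 1.63%, and none of the 3 was found in a promoter of the other 2 clusters. GTGGCGCT was also the most shared stretch of all members together. The stretches were chosen on these promoters, so these counts are descriptions. Shown are 60 bases upstream of the start, plus strand, with the cluster's 8 bases in capitals. In each cluster they are the members with the highest and the lowest mean signal among those whose bases could be shown in this way, and PCDHA8 is added for its difference between the libraries.

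PCDHA2, chr5:140794767-140794826: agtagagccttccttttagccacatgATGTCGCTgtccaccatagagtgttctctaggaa
PCDHA8, chr5:140841116-140841175: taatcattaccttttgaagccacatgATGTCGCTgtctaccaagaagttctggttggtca
PCDHA10, chr5:140855823-140855882: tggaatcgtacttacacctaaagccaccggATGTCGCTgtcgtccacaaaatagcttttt
PCDHB3, chr5:141100379-141100438: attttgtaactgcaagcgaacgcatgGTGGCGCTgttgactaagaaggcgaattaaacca
PCDHB4, chr5:141121709-141121768: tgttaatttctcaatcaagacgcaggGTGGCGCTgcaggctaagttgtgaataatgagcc
PCDHGC3, chr5:141475868-141475927: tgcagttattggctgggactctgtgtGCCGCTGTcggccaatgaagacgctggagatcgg
PCDHGA10, chr5:141412919-141412978: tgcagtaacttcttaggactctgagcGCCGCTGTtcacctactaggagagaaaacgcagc

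In PCDHA8 and PCDHA10 the shared bases begin 45 and 44 bases before the RefSeq start. PCDHGA4 and PCDHAC1, high members of their clusters, did not hold the stretch of their cluster, and in the following lines 1 CGCT of each, the nearest to the start, is in capitals.

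PCDHGA4, chr5:141354961-141355020: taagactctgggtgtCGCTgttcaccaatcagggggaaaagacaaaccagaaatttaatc
PCDHAC1, chr5:140926239-140926298: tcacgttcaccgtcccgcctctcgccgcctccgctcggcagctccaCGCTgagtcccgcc

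As a whole, the members stood modestly above the median promoter of each library. Their median signal was 5.27 with PAF1 and 5.42 with PHF5A, where the median of all 57997 symbols was 4.11 and 4.30. With PAF1 42 of the 59 members lay above that median, against 49.9% of all symbols, and with PHF5A 39 did, against 49.6%. In both libraries at once 36 members did, against 40.8% of symbols. No member was listed at 0 in either library, where 3.61% of all symbols were.

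Few members reached the extremes. Multiples of the median promoter were taken after adding 0.5 to each signal. At or above 2 times the median were 2 members with PAF1 (8.11% of all symbols) and 3 with PHF5A (6.76%), which is 3.39% and 5.08% of the members. At or below 0.5 times the median were 6 members with PAF1 (15.9% of symbols) and 2 with PHF5A (15.5%). PCDHAC2 lay just under the upper limit of 8.72 with PAF1, at 8.66, while PCDHGC3 lay on the upper limit of 9.1 with PHF5A, at 9.11.

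**Figure D1:**
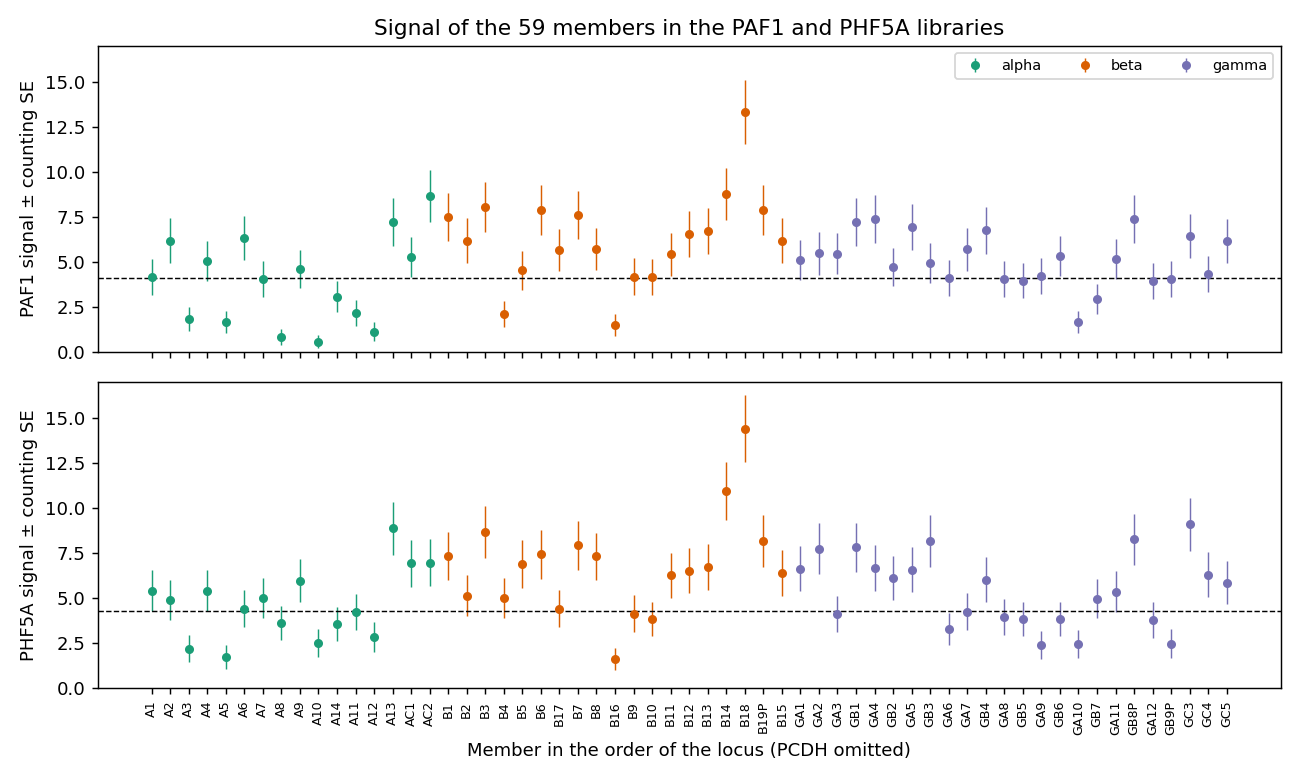
Signal per promoter window of the 59 members in the order of the locus, PAF1 above and PHF5A below, with counting standard errors of a single library as bars and the median symbol as a dashed line (4.11 and 4.30). PCDHB18 stands highest in both libraries, at 13.3 and 14.4, and the lowest PAF1 points are the alpha members PCDHA10, PCDHA8 and PCDHA12.

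The clusters differed in level, in the order beta, gamma, alpha in both libraries. The beta cluster had a median of 6.17 with PAF1 and 6.76 with PHF5A, the gamma cluster 5.13 and 5.61, and the alpha cluster 4.11 and 4.66. Against the median promoter this is 1.45 and 1.51 times for beta, 1.22 and 1.27 times for gamma and 0.999 and 1.07 times for alpha. By means, beta exceeded alpha by 2.39 ± 0.375 with PAF1 (6.31 against 3.92) and by 2.14 ± 0.399 with PHF5A (6.81 against 4.67). Gamma exceeded alpha by 1.22 ± 0.334 with PAF1 and by 0.757 ± 0.356 with PHF5A, and beta exceeded gamma by 1.17 ± 0.365 and 1.38 ± 0.379.

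These differences exceed their counting errors, but the members of each cluster overlapped widely. Among beta members the standard deviation of the signal was 2.60 with PAF1 and 2.77 with PHF5A, among alpha members 2.45 and 1.94, and among gamma members 1.45 and 1.99. A single window carried a counting error of about 0.975 to 1.29 (root mean square by cluster and library), so part of that spread is counting. Each difference between clusters was smaller than the standard deviation among the members of either cluster, with 1 exception. With PHF5A, beta exceeded alpha by 2.14, more than the 1.94 among alpha members but less than the 2.77 among beta members. Members of a cluster share region and library and are not replicates, so no test was made of the order. Some members are alike in sequence, as PCDHGB4 and PCDHGB5 are just before their starts. Whether reads could be placed uniquely in member windows, that of PCDHB18 among them, was not tested.

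**Figure D2:**
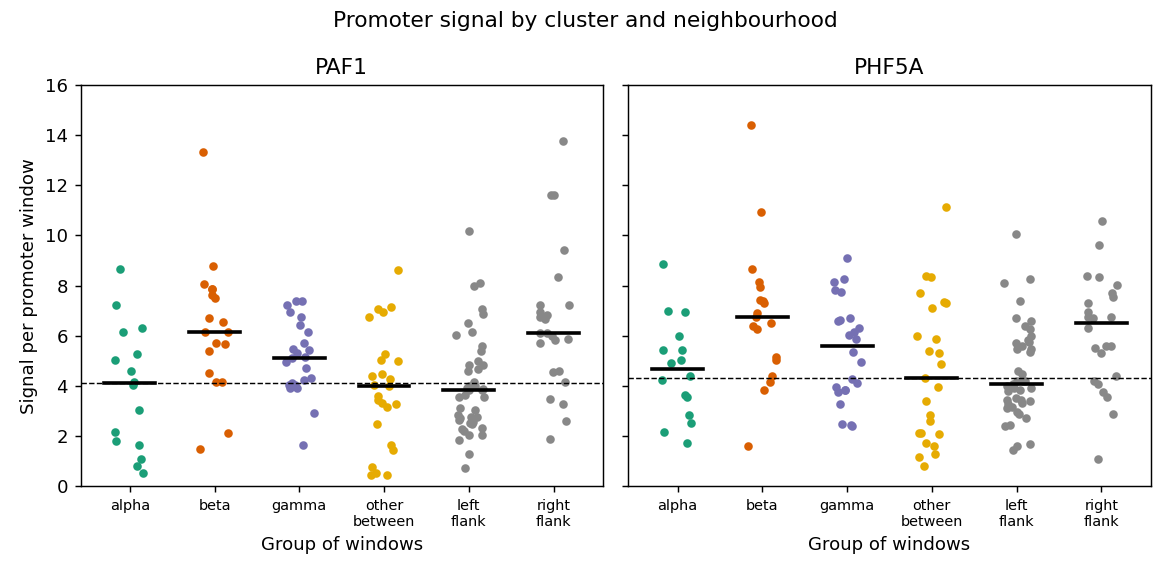
Signal per promoter window for the alpha, beta and gamma members, the other windows between them, and the windows within 1 Mb to the left and right, with PAF1 on the left and PHF5A on the right. Bars are medians, the dashed line is the median symbol, and horizontal scatter has no meaning. The beta median (6.17 and 6.76) lies close to that of the right flank, and the alpha median (4.11 and 4.66) closer to that of the left flank.

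The flanks also differed in level, the left one lying near the alpha cluster and the right one near the beta cluster. Within 1 Mb before the alpha cluster lay 43 windows with a median of 3.83 for PAF1 and 4.08 for PHF5A. Within 1 Mb after the gamma cluster lay 24 windows with medians of 6.11 and 6.51. The protein-coding windows gave the same picture, with medians of 3.88 and 4.19 for 23 windows on the left and 6.27 and 6.73 for 12 windows on the right. Over both sides together the median of 67 windows was 4.55 and 4.61.

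The nearest protein-coding window on the left was that of ZMAT2, a zinc finger gene of the spliceosome, with 8.0 ± 1.39 with PAF1 and 5.58 ± 1.16 with PHF5A. DIAPH1, an actin-nucleating formin and the nearest on the right, had 6.83 ± 1.28 and 5.53 ± 1.16. These nearest windows differed by less than their counting errors between the sides. By the mean of both libraries, the highest protein-coding flank windows were those of FCHSD1 (11.6 ± 1.67 and 9.61 ± 1.52), ARAP3 (7.22 ± 1.32 and 8.38 ± 1.42) and HARS2, a mitochondrial histidyl-tRNA synthetase (7.05 ± 1.30 and 8.27 ± 1.41). The lowest by that mean were those of the histone deacetylase gene HDAC3 (1.88 ± 0.674 and 1.11 ± 0.520), APBB3 (2.05 ± 0.703 and 1.62 ± 0.626) and NDUFA2, of respiratory complex I (2.33 ± 0.749 and 1.67 ± 0.637).

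**Figure D3:**
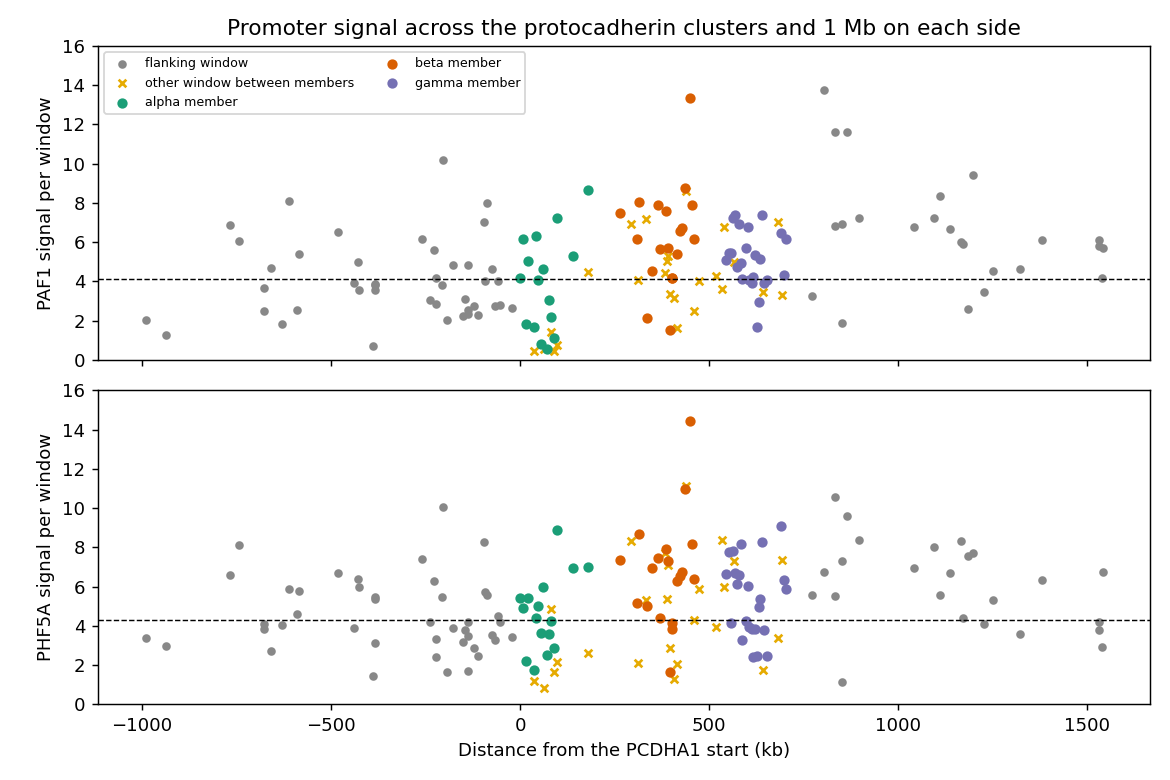
Signal of each promoter window against the distance of its start from the PCDHA1 start (kb), PAF1 above and PHF5A below, for members by cluster, other windows between members (crosses) and flanking windows (grey). The dashed line is the median symbol. Of the 6 crosses among the alpha members, 4 lie below 1 with PAF1, and grey points to the right of the clusters lie mostly above the line, with medians of 6.11 and 6.51.

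The alpha cluster (chr5:140784136-140966735) held both high and low promoters. PCDHA1, the first member of the locus (ENSG00000204970), had 4.16 ± 1.00 with PAF1 and 5.42 ± 1.15 with PHF5A. The highest alpha members by the mean of both libraries were PCDHA13 (chr5:140880208-140882708), with 7.22 ± 1.32 and 8.88 ± 1.47, and PCDHAC2 (chr5:140964235-140966735), the last alpha member, with 8.66 ± 1.44 and 6.98 ± 1.30. The lowest were PCDHA10 (chr5:140853883-140856383), with 0.550 ± 0.365 and 2.51 ± 0.780, and PCDHA5 (chr5:140819604-140822104), with 1.66 ± 0.633 and 1.73 ± 0.647. A listed 0 in a window of 18 bins would allow a signal of up to 0.721 with PAF1 from counting alone, and PCDHA10 lies below that level.

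High and low members alternated along the alpha cluster rather than forming a slope. PCDHA2 had 6.17 ± 1.25 and 4.91 ± 1.12 beside PCDHA3 with 1.82 ± 0.681 and 2.18 ± 0.749, and PCDHA6 had 6.33 ± 1.23 and 4.41 ± 1.03 beside PCDHA5. PCDHA4 (5.05 and 5.42), PCDHA7 (4.05 and 5.03) and PCDHA9 (4.61 and 5.98) lay at or near the library medians. The pseudogene PCDHA14 had 3.05 ± 0.857 and 3.57 ± 0.930. The rank correlation of position and signal over the 16 alpha members was 0.14 with PAF1 and 0.32 with PHF5A.

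The stretch from PCDHA8 to PCDHA12 held 3 of the 4 alpha members at or below 0.5 times the median with PAF1. PCDHA8 had 0.830 ± 0.448 with PAF1 and 3.63 ± 0.937 with PHF5A, PCDHA11 2.16 ± 0.722 and 4.24 ± 1.01, and PCDHA12 1.11 ± 0.517 and 2.85 ± 0.830. PCDHA13, next along the chromosome, was high in both libraries. The 9 alpha promoters with ATGTCGCT had medians of 4.05 and 4.41, within a range of 0.55 to 6.33 with PAF1. The 4 without it, both C-type members among them, had medians of 4.94 and 6.46. Of these 4, PCDHA9 and PCDHA11 have RefSeq starts 919 and 774 bp past the start in the table, outside the window. Whether their windows hold the stretch was not tested.

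Other windows inside the alpha cluster were lower still. The table lists 6 minus-strand transcripts there, and antisense RNAs from alpha variable exons are known from neurons. AC005609.16, which starts 589 bp after PCDHA5, had 0.470 with PAF1 and 1.18 with PHF5A. AC005609.18, 620 bp after PCDHA12, had 0.440 and 1.62, and AC005609.17, 434 bp after PCDHA13, had 0.760 and 2.13. AC005609.19, 2233 bp after PCDHA9, had 0.550 and 0.830. These values are near the level that a 0 allows with PAF1. The remaining windows were higher: AC005609.20 had 1.44 and 4.86, and CTC-270D5.2, beside PCDHAC2, had 4.47 and 2.60.

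The windows of AC005609.17 and PCDHA13 share 567 bp, and yet the PCDHA13 window was among the highest of the cluster. Most of the PCDHA13 signal thus lay outside the bases the windows share.

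The beta cluster (chr5:141049135-141245849) held the highest promoters of the locus. PCDHB18 (ENSG00000146001, chr5:141232333-141234833), which the table describes as a pseudogene, had 13.3 ± 1.79 with PAF1 and 14.4 ± 1.87 with PHF5A. These are 3.0 and 3.11 times the median promoter, at percentiles 98.9 and 99.4 of all symbols. PCDHB14 (ENSG00000120327, chr5:141220932-141223432) followed with 8.77 ± 1.45 and 10.9 ± 1.63, or 2.01 and 2.38 times the median. These 2 were the only members at 2 times the median in both libraries, 3.39% of members against 4.63% of all symbols. They are neighbours, and the window of the transcript CH17-140K24.8, which shares 2061 bp with that of PCDHB14, had 8.61 and 11.1.

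PCDHB1, the first beta gene, had 7.50 ± 1.34 with PAF1 and 7.37 ± 1.34 with PHF5A. It is known to lack the conserved element, and GTGGCGCT was absent from its RefSeq promoter. PCDHB15, the last beta gene, had 6.17 ± 1.25 and 6.39 ± 1.28. The pseudogenes PCDHB19P (7.88 ± 1.42 and 8.16 ± 1.45) and PCDHB17 (5.66 ± 1.17 and 4.41 ± 1.03) also lay above the median promoter. Over all 6 members described as pseudogenes the medians were 6.52 and 6.29, beside 5.16 and 5.42 for the other 53.

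PCDHB16 was the lowest beta member, with 1.50 ± 0.600 with PAF1 and 1.62 ± 0.626 with PHF5A, in both libraries below 0.5 times the median. PCDHA5 was the other member that low in both, so that 2 of 59 were (3.39%), against 11.3% of all symbols. By the mean of both libraries PCDHB4 was next, with 2.11 ± 0.712 and 5.03 ± 1.10. The other beta members with low values were PCDHB10 (4.16 ± 1.00 and 3.85 ± 0.966) and PCDHB9 (4.17 ± 1.03 and 4.14 ± 1.03). Their windows share 2309 bp, because the table sets their starts 192 bp apart, and are not separate measurements.

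The start sites of the table and of RefSeq differ for some members. RefSeq places the start of PCDHB10 5034 bp further along than the table does, that of PCDHGA8 2476 bp, PCDHB16 988 bp, PCDHA9 919 bp and PCDHA11 774 bp. For these 5 members the window does not reach the RefSeq start, and its part in their values was not tested. The starts of 41 of the 47 matched members agree within 250 bp.

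Among the other beta members, PCDHB3 (8.05 ± 1.39 and 8.66 ± 1.45), PCDHB6 (7.88 ± 1.38 and 7.43 ± 1.34) and PCDHB7 (7.61 ± 1.35 and 7.93 ± 1.39) were highest. PCDHB2, PCDHB5, PCDHB8, PCDHB11, PCDHB12 and PCDHB13 lay between 4.52 and 6.72 with PAF1 and between 5.14 and 7.32 with PHF5A. In all, 17 of 19 beta members exceeded the median promoter with PAF1 and 16 with PHF5A, against 49.9% and 49.6% of all symbols. Of the 24 windows of the right flank, 20 and 18 did. Position and signal had a rank correlation of 0.20 and 0.13 over the 19.

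In the gamma cluster (chr5:141328571-141489621) A-type and B-type promoters are interspersed, followed by the C-type members. PCDHGA1, the first, had 5.11 ± 1.11 with PAF1 and 6.65 ± 1.27 with PHF5A. The highest gamma members by the mean of both libraries were the pseudogene PCDHGB8P (7.38 ± 1.33 and 8.27 ± 1.41) and PCDHGC3 (6.44 ± 1.25 and 9.11 ± 1.48). PCDHGA10 (chr5:141410987-141413487) was lowest by that mean, with 1.66 ± 0.633 and 2.45 ± 0.771, followed by the pseudogene PCDHGB9P, with 4.05 ± 1.02 and 2.48 ± 0.798, and by PCDHGA9, with 4.22 ± 1.01 and 2.40 ± 0.762.

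The signal of the A-type and B-type gamma promoters was higher in the first part of the cluster. The first 10, PCDHGA1 to PCDHGA7 with the B-type genes between them, averaged 5.70 ± 0.374 with PAF1 and 6.15 ± 0.389 with PHF5A. The other 11 averaged 4.49 ± 0.316 and 4.31 ± 0.310. The rank correlation of position and signal over these 21 members was -0.46 and -0.50, and over the 12 A-type members alone -0.57 and -0.66. The C-type members after them were higher again, so that over all 24 gamma members it was -0.26 and -0.24. Neighbouring windows share library and region, and these correlations carry no test.

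A-type and B-type promoters differed little with PAF1, with medians of 5.13 (12 members) and 4.94 (9 members). With PHF5A the medians were 4.20 and 6.03, and the means 4.78 ± 0.312 and 5.73 ± 0.396. Promoters with GCCGCTGT had medians of 5.11 and 4.26 over 11 members, and those without it 5.16 and 6.14 over 9. This split is by exact spelling: PCDHGA2, PCDHGA3, PCDHGA4, PCDHGA5 and PCDHGA6, counted as without it, hold GTCGCTGT. For PCDHGA8, counted as with it, the RefSeq start lies 2476 bp past the start in the table, outside its window.

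The 5 C-type members were all above the median promoter in both libraries, where 40.8% of all symbols were. PCDHAC1 had 5.27 ± 1.13 with PAF1 and 6.93 ± 1.29 with PHF5A, PCDHGC4 4.33 ± 1.02 and 6.31 ± 1.24, and PCDHGC5, the last member, 6.16 ± 1.22 and 5.86 ± 1.19. Together with PCDHAC2 and PCDHGC3 their medians were 6.16 and 6.93, beside 3.55 and 4.33 for the other 14 alpha members, 5.13 and 4.20 for gamma A-type, 4.94 and 6.03 for gamma B-type and 6.17 and 6.76 for beta members. The C-type level was thus close to that of the beta cluster. Within the alpha cluster the C-type members were also those richest in GC, with promoters of 66.0% for PCDHAC1 and 63.0% for PCDHAC2.

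Promoter base composition was low in GC for most members. The median GC content of the RefSeq promoter was 39.7% over 47 members, where it was 62.0% over the 15832 symbols of the table with a RefSeq promoter. Across those symbols the signal was lower at higher GC, with a rank correlation of -0.28 in each library. Among the 47 members the sign was the other way, with 0.22 for PAF1 and 0.31 for PHF5A. Within clusters it was 0.22 and 0.57 for 13 alpha members, 0.01 and 0.0 for 14 beta members and 0.05 and 0.25 for 20 gamma members. The 3167 symbols of lowest GC (up to 50.9%) had medians of 4.94 with PAF1 and 5.14 with PHF5A, and 42 of the 47 members lie in that range. The matched members had medians of 5.11 and 5.42, close to those of that class, whose median GC was somewhat higher, at 43.7%. By cluster the medians of matched members were 4.16 and 4.91 for alpha, 6.17 and 6.645 for beta and 5.135 and 5.695 for gamma. Among the clusters, the median GC was 37.3% for alpha, 40.8% for beta and 42.0% for gamma. The order of the clusters by GC was not their order by signal, and the part of base composition in the result was not tested.

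**Figure D4:**
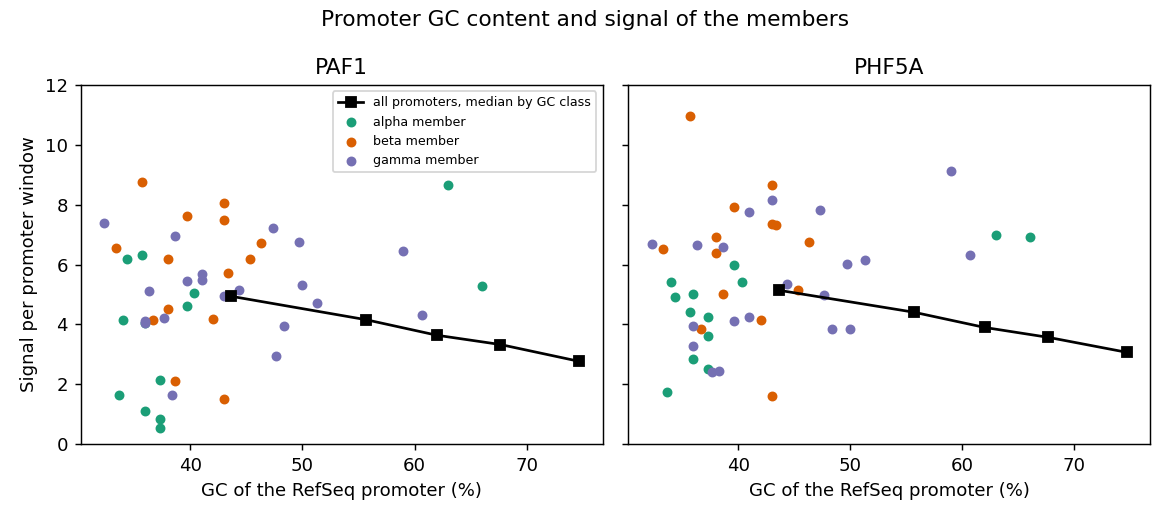
Signal per promoter window against GC content of the RefSeq promoter (%) for 47 members, PAF1 on the left and PHF5A on the right. Black squares are median signals of all symbols with a RefSeq promoter, in 5 classes by GC, from 4.94 and 5.14 at the lowest GC to 2.77 and 3.07 at the highest. Most members sit at the left, on both sides of the first square.

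The PAF1 and PHF5A libraries were then compared member by member, on a log2 scale with 0.5 added and each library centred on its median symbol. Over the 59 members the median difference of PAF1 minus PHF5A was -0.03, with PAF1 higher in 29 and lower in 30. The standard deviation of the differences was 0.45, where it was 0.48 over all 58388 windows with signal in at least 1 library. A difference beyond 2 counting errors was seen in 3 members, 5.08%, against 4.81% of all windows. The counting error was itself set by how these same libraries divide across windows. The share over all windows therefore follows from its definition and is no test of a difference between antibodies. By the standard deviation and this share, the members differed between the libraries about as much as windows in general. Their signals in the libraries had a rank correlation of 0.81 (59 members), against 0.84 over all symbols.

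PAF1 was at most 0.5-fold of PHF5A in 3 members, 5.08%, against 2.29% of all symbols, and in none was it at least 2-fold, against 1.87%. PCDHA8 had the largest difference, -1.58 ± 0.59, followed by PCDHA10 with -1.46 ± 0.63 and PCDHB4 with -1.02 ± 0.49. PCDHA12, at -0.999 ± 0.585, lay just short of the limit. The PAF1 signal of PCDHA10, 0.550, is below the 0.721 that a listed 0 allows, and that of PCDHA8, 0.830, is just above it. With 1 added in place of 0.5, or with protein-coding symbols as the centre, 2 members remained and PCDHB4 fell short. In the other direction PCDHGA9 had 0.76 ± 0.49, PCDHGB9P 0.67 ± 0.50 and PCDHA6 0.53 ± 0.40. None of these last 3 exceeded 2 counting errors.

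By cluster, the median difference was -0.22 for alpha, 0.01 for beta and 0.09 for gamma. In the alpha cluster PAF1 was lower in 12 of 16 members, where it was lower in 48.1% of all 58388 windows with signal. Summed over the cluster, the log2 ratio of PAF1 to PHF5A was -0.17 ± 0.12 for alpha, -0.03 ± 0.09 for beta and 0.005 ± 0.09 for gamma, beside 0.05 over all windows. The 7 members from PCDHA8 to PCDHA13, with PCDHA14 among them, were all lower with PAF1, and their summed ratio was -0.61 ± 0.20. The 7 members before them had 0.09 ± 0.19. This split was made after the values were seen and is a description. Of the 6 minus-strand windows inside the alpha cluster, 5 were also lower with PAF1, with a summed ratio of -0.64 ± 0.32 over the 6, and some of them share bases with member windows. Between the beta and gamma clusters TAF7, a gene of the general transcription factor TFIID, had 3.61 ± 0.932 with PAF1 and 8.38 ± 1.42 with PHF5A, or -1.05 ± 0.40. SLC25A2, an ornithine transporter gene beside it, had 4.27 ± 1.01 and 3.96 ± 0.980.

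**Figure D5:**
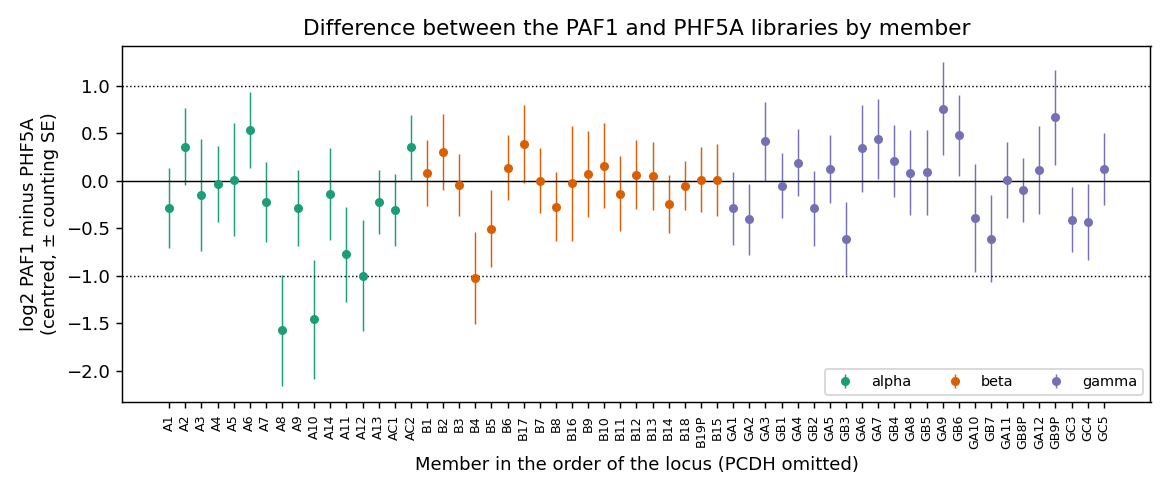
Difference of PAF1 minus PHF5A (log2 of signal plus 0.5, each library centred on its median symbol) for the 59 members in the order of the locus, with counting standard errors as bars and dotted lines at 2-fold. PCDHA8, PCDHA10 and PCDHB4 reach the lower dotted line, and no member reaches the upper one.

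Related genes elsewhere were read beside the members. The 13 non-clustered protocadherins, in 15 windows, had medians of 3.44 with PAF1 and 3.07 with PHF5A. Of these windows 7 and 5 lay above the median promoter, against 49.9% and 49.6% of all symbols. PCDH1, which lies in the right flank, was the highest by the mean of both libraries, with 7.23 ± 1.36 and 8.04 ± 1.44, and PCDH12, in the same flank, had 2.61 ± 0.792 and 7.54 ± 1.35. PCDH11X and PCDH11Y are near-identical copies, and their values are uncertain. The PCDH11Y windows had 0.0 with PAF1 and 0.11 and 0.0 with PHF5A, and PCDH11X had 0.66 and 1.9. All of these lie below the medians of the list and are counted in them. The 9 other large cadherins had medians of 2.05 and 3.07, by the mean of both libraries from DCHS1 (9.64 ± 1.57 and 7.63 ± 1.40) to CELSR1 (0.270 ± 0.258 and 0.890 ± 0.465). Of 13 genes whose products act on the clusters, such as CTCF and cohesin subunits, 12 were found by symbol, with medians of 4.08 and 3.88. By the mean of both libraries the cohesin gene STAG1 was highest (8.27 ± 1.41 and 9.39 ± 1.51), SMC1A lowest (2.29 ± 0.764 and 2.30 ± 0.769), and CTCF had 5.44 ± 1.14 and 5.08 ± 1.11.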

How the data were processed

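The authors deposited a mean ChIP signal for each promoter window. Its normalization was not given in the sources used. Bowtie2 2.2.3, deepTools, bedtools, Picard, Trim Galore and GRCh38 (hg38) are listed by the submitters' processing notes. PAF1 values equal means of whole numbers over the 150 bp bins a window touches (100% of 60119 windows of 2500 bp, tolerance 0.0051), as do PHF5A values once divided by 1.00608. Bin sums totalled 4810548 (PAF1) and 4891421 (PHF5A).

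Counting errors used a dispersion of 4.33, estimated by how bin sums divided among both libraries in 51588 windows without overlap. It includes any true difference between antibodies. It is 1 value for all windows, so errors may be too large or too small for single windows and groups. The same measure was 6.488 over alpha, 2.21 over beta and 3.455 over gamma members. Over the 7 members from PCDHA8 to PCDHA13 it was 11.724. Simulated dispersions of 2, 4 and 6 were recovered as 1.99, 3.98 and 6.03. A listed 0 was read as up to 3 counts times the dispersion.

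Symbols with several windows were averaged for the library median and for shares of all symbols, while flanks were read by window. Protein-coding symbols came from RefSeq. Named genes were the ends, extremes, C-type members, pseudogenes and largest differences of each cluster, and the nearest, highest and lowest flank genes. Minus-strand and other transcripts between members were named after their values were seen. Members and lists were chosen with earlier results of these data known. Values were computed with SciPy 1.17.1, numpy 2.4.6 and pandas 2.3.3 in Python 3.11.15, and plotted with matplotlib 3.10.9.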

Additional observations from a re-analysis of the deposited data

How the results depend on the processing

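No paired analysis was possible because each antibody has 1 library, and for the same reason no replicate could be left out. With protein-coding symbols as the centre, log2 medians against it were 0.69 (beta) and 0.45 (gamma) with PAF1 and 0.72 and 0.47 with PHF5A, 6 and 5 members reached 2 times the centre, and 1 fell to 0.5 times with PHF5A. The PAF1 count at 2 times was 1 with chromosome 5 as centre, a pseudocount of 1, the highest window per symbol, no pseudogenes, no windows of mean signal below 1, or no PCDHB18, and the PHF5A count at 0.5 times was 1 with a pseudocount of 1. Against a flank of 0.5 Mb, beta and gamma lay 0.54 and 0.30 higher with PAF1, and alpha, beta and gamma -0.21, 0.28 and 0.032 with PHF5A. Against protein-coding flank windows the PHF5A values were -0.19, 0.31 and 0.059. Without PCDHA8, PCDHA10, PCDHA11 and PCDHA12, an alternative chosen after seeing the data like that without PCDHB18, the alpha median was 0.21 with PAF1 and 0.25 with PHF5A against the median promoter and 0.077 and 0.16 against the flanks, 3 members lay at or below 0.5 times with PAF1, and 1 had PAF1 at most 0.5-fold of PHF5A. The other 194 of 222 values moved by less than 2 counting errors or, for counts of members, by no more than 1.5 times. Some of them could not move, as a cluster median minus the flank median does not depend on the centre. Others include a change from 6 to 4 members at or below 0.5 times with PAF1, with protein-coding symbols as the centre. Depth limits single windows, whose errors are near 1 signal unit.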
